A study of Mus musculus with 6 samples.

Results

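The 10 genes described here encode the slow forms of the muscle sarcomere and of its calcium pump. They are Myh7, Myh7b, Myl2, Myl3, Tnnt1, Tnni1, Tnnc1, Tpm3, Atp2a2 and Myoz2, taken by name from 21827 protein-coding gene names. For each gene, the Maf peaks and H3K27ac regions inside it and within 50 kb of its protein-coding transcript starts were collected, with genes and starts from the GENCODE annotation of the mouse genome GRCm38. The data were ChIP-seq of nuclei from whole gastrocnemius and quadriceps muscles of wild-type (WT) mice aged 2 months, with 2 samples for Maf, 2 for H3K27ac and 2 inputs, which the labels call biological replicates. The question was which genes Maf binds in adult muscle, and whether H3K27ac lies at the same places. Sorting of nuclei by fiber type is not described, so fewer nuclei of a fiber type and less mark or binding per nucleus cannot be told apart.

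Slow fibers contract slowly and resist fatigue, and they do so with their own myosins, troponins, tropomyosin and calcium pump, each of which has a fast counterpart from a related gene. Calcium released in the fiber binds troponin, troponin moves tropomyosin on the thin filament, myosin pulls, and the pump returns the calcium to the sarcoplasmic reticulum. In the mouse, the gastrocnemius and quadriceps are made mostly of fast fibers, with slow fibers in their deep parts. Maf is a basic leucine zipper transcription factor whose known site holds the half-site TGCTGAC. H3K27ac, an acetyl mark on the tail of histone H3, is typical of promoters and enhancers in use.

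The deposited lists gave the positions of peaks called in each sample without read counts, and sequencing depth is therefore unknown. The H3K27ac lists of replicates 1 and 2 were alike in size, with 44887 and 44987 regions, whereas the Maf lists held 74 peaks in replicate 1 and 5467 peaks in replicate 2. Almost all statements on Maf therefore rest on 1 sample. Markers of cells other than muscle fibers also carried H3K27ac at their promoters, at 4 of 4 endothelial, 4 of 4 fibro-adipogenic, 4 of 4 macrophage, 2 of 3 smooth muscle, 2 of 3 satellite cell, 2 of 3 Schwann cell and 1 of 2 adipocyte genes. The part of these cells in the marks described below was not tested. Fast fiber markers carried the mark at 6 of 6 genes, heart markers at 1 of 4 (Myl4) and liver markers at 0 of 4. Over all protein-coding genes the share was 58.3%, and the counts of 2 of 3 and 1 of 2 lay near it.

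The slow genes carried less H3K27ac than their fast counterparts in these muscles. A region of the mark lay within 1 kb of a transcript start, here called the promoter, at 5 of the 10 slow genes in either replicate, namely Tnnc1, Myl3, Tpm3, Atp2a2 and Myoz2. All 9 fast counterparts had one, and over all protein-coding genes the share was 58.3%. A region touched 6 of the 10 slow genes and 9 of 9 fast counterparts, against 63.3% of all genes. The slow genes thus stood near the genome as a whole, while the fast counterparts were all marked.

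The sets also differed in how broadly they were marked. No slow gene was touched by a region of 10 kb or more, whereas 7 of the 9 fast counterparts were, and 3.72% of all genes. The longest region that touched a slow gene measured 5081 bp, at Tnni1. The longest regions touching the fast counterparts ran from 9214 bp at Mylpf, the fast regulatory light chain, to 47650 bp at Tnnt3, the fast troponin T. The median share of the gene covered by H3K27ac was 5.17% in replicate 1 and 5.53% in replicate 2 for the slow genes, against 100% and 95.3% for the fast counterparts and 3.07% and 3.15% for all genes. In each of 9 slow and fast pairs, and in each replicate, the slow gene had the lower share. After merging the replicates the sets did not overlap, with at most 22.2% covered among slow genes (Tpm3) and at least 79.7% among fast counterparts (Myl1). Of all genes, 81.9% had a lower share than Tpm3 and 97.1% a lower share than Myl1. The share depends on gene length, and the slow gene was the longer in all pairs but Tnnt1 (11813 bp) and Tnnt3 (17174 bp). Atp2a2, for example, measured 48713 bp and Atp2a1 17251 bp. The part of gene length was not tested.

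**Figure D1:**
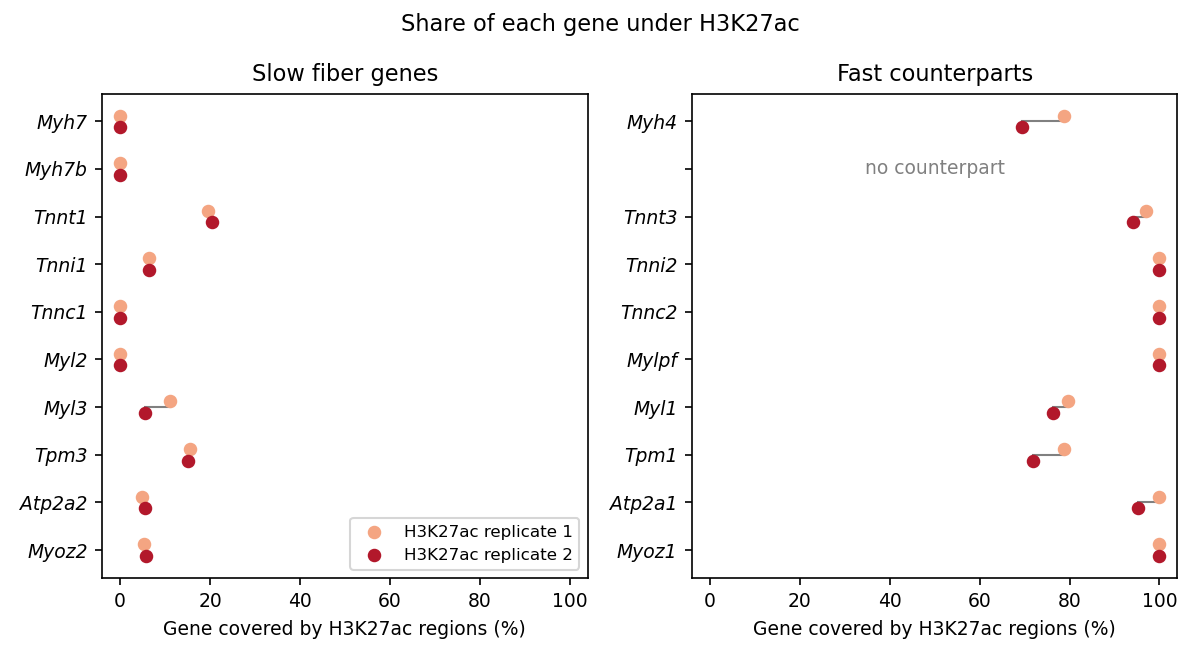
Share of each gene covered by H3K27ac regions, in percent, for the 10 slow fiber genes (left) and their 9 fast counterparts (right), with 1 point per replicate and a line joining both. Slow genes lie between 0 and 20.4% in replicate 2, and fast counterparts between 69.4% and 100%.

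Myh7 encodes the slow myosin heavy chain, the motor of slow fibers. Its gene, at chr14:54970684-54994626 on the minus strand, held no H3K27ac in either replicate (0% of the gene and 0% of the promoter). The nearest region lay 19574 bp before the start in replicate 1 and 19610 bp before it in replicate 2, and it was the promoter region of Ngdn. The window around Myh7 thus held 2.17 and 2.14 kb of the mark, all of it in that region. Myh4, the heavy chain of the fastest fibers, was covered over 78.8% and 69.4% of its length, and its window held 39.9 and 34.8 kb. The nearest Maf peak was 237902 bp from Myh7 and unmarked by H3K27ac, against 138 bp from Myh4, where the peak stood at position 271 of the 5467 peaks of replicate 2.

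Myh7b encodes a related slow heavy chain and has no fast counterpart among the genes compared. It lies at chr2:155611212-155634307 on the plus strand and was likewise free of H3K27ac in both replicates. The nearest region, in the gene Gss, ended 17635 bp before the start in replicate 1 and 17429 bp before it in replicate 2. The nearest Maf peak was 167620 bp away, at position 3720 of 5467.

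The sequences before both heavy chain genes are shown since neither gene carried any mark over its start or body, and since Myh7b carries the Maf half-site there. They run to the base before the GENCODE start, at chr2:155611012-155611211 on the plus strand for Myh7b and at chr14:54994627-54994876 on the minus strand for Myh7. Capitals mark TGCTGAC, the Maf half-site, in Myh7b, and CATTCC, the MCAT element bound by Tead factors, read on the other strand, in Myh7.
Myh7b: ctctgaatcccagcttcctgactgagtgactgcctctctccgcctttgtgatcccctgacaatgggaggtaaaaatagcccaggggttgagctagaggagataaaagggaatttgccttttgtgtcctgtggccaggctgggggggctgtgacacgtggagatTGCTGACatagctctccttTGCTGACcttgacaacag
Myh7: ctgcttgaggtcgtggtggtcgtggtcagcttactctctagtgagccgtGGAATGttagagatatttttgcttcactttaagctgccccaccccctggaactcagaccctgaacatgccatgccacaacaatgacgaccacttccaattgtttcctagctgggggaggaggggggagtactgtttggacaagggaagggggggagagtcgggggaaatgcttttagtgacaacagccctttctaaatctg
The sites of Myh7b begin at -37 and -18 from the start. Of 32851 RefSeq promoters of 300 bases in GRCm38.p6, 4.67% held TGCTGAC on either strand, and 62 (0.189%) held it at 2 or more places, Myh7b among them. The half-sites of Myh7b thus stood in a promoter without a Maf peak in either list. CATTCC was present in 14.7% of all promoters.

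Each of both heavy chain genes holds a microRNA in an intron, and these microRNAs are known to repress inhibitors of the slow program. They are shown to display the seed, bases 2 to 8, in capitals, as RefSeq gives them. miR-208b-3p lies in Myh7 at chr14:54975710-54975731 on the minus strand, and miR-499-5p in Myh7b at chr2:155622893-155622913 on the plus strand.
miR-208b-3p: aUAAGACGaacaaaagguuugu
miR-499-5p: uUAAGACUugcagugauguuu
The seeds differed in their last base only. No H3K27ac region lay over either microRNA.

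The light chains wrap the myosin neck. Myl2, the regulatory light chain of slow fibers and of the ventricle, had no H3K27ac over its gene at chr5:122100951-122113472 in either replicate. The nearest region lay 7861 bp before a start in replicate 1, with a length of 626 bp, and this region was not called in replicate 2, where the nearest was 14599 bp away. The RefSeq promoters used here place the starts of Myl2 instead at 122092724 and 122093189. The 626-bp region covered the first and lay within 1 kb of the second. Myl2 was counted as unmarked by its GENCODE starts, whereas by the RefSeq starts it would be marked, in replicate 1 only. Mylpf, the fast regulatory light chain, was covered over 100% of its length in both replicates. The windows of the pair held 9.73 and 10.4 kb of the mark for Myl2, against 18.6 and 19.9 kb for Mylpf.

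Myl2 had a Maf peak on either side, both only in replicate 2. The peak before the gene lay 29659 bp from the start at position 3396 of 5467, in an H3K27ac region of 3088 bp, and held CAGCTG, the E-box of myogenic factors. The peak after the gene lay 27798 bp from the start at position 2761, in an intron of Ccdc63, and had no H3K27ac. It is shown since it was the only Maf peak around a slow gene with the full half-site. It lies at chr5:122128781-122129061 and is given on the plus strand, with TGCTGAC and the shorter TGCTGA in capitals, the longer site being on the other strand.
Myl2: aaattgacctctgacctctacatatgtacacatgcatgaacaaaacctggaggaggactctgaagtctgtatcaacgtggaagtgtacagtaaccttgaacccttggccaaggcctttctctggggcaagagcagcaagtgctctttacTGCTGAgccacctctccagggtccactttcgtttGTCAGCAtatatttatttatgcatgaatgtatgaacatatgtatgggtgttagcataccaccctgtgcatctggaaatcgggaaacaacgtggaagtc
The centre of the TGCTGAC site lay 46 bp from the centre of the peak, and that of the separate TGCTGA site 12 bp from it. The half-site TGCTGAC was present in 22.7% of all Maf peaks.

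Myl3, the essential light chain of slow fibers and of the ventricle, was marked at its start, and the replicates differed there. The region at the start covered 52.6% of the promoter in replicate 1 and 17.7% in replicate 2. It was 2474 bp long in replicate 1 and 760 bp in replicate 2, where it began 208 bp past the nearest start. Of the gene, 11.1% and 5.54% were covered, against 79.7% and 76.4% of Myl1, the fast essential light chain. Part of this came from a further region, 19827 bp before the Myl3 starts, with its centre 260 bp from the start of Pth1r. That region held 632 bp in replicate 1 and 787 bp in replicate 2, where it was longer than the region at the start. No Maf peak lay within 50 kb of Myl3. The nearest, 75440 bp away, stood early in the list, at position 194. Myl1 had 5 peaks in its window, the nearest 170 bp from a start at position 1991. Others lay in its introns, at positions 466 and 640.

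The 3 slow troponin genes each had a different pattern. Tnnt1, the slow troponin T that ties the complex to tropomyosin, lies at chr7:4504570-4516382 on the minus strand and had no region at its promoter. A region of 1460 bp lay in an intron, 1965 bp past a start in replicate 1 and 1840 bp in replicate 2, and a region of 1305 bp lay over the end of the gene. Together they covered 19.5% of Tnnt1 in replicate 1 and 20.4% in replicate 2, against 97.0% and 94.1% of Tnnt3. A longer region of 6694 bp lay past the gene, in Ppp1r12c. The nearest Maf peak to Tnnt1 was 373963 bp away, the farthest of the 10 genes, against 2276 bp for Tnnt3, where it stood at position 179.

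Tnni1, the slow inhibitory troponin, had no H3K27ac within 1 kb of its protein-coding starts. An intron region of 1723 bp lay 3782 bp before them in replicate 1 and 3828 bp in replicate 2. A region of 5081 bp covered the annotated 5′ end of the gene, at 135779434, where no protein-coding transcript of the annotation begins. The regions covered 6.38% and 6.32% of Tnni1, against 100% of Tnni2, the fast inhibitory troponin, in both replicates. A Maf peak lay 28275 bp before the starts at position 1997, closest to the start of Phlda3 (4868 bp), in a region of 10508 bp that did not touch Tnni1. This was the only pair in which the slow gene had the nearer Maf peak, since the peak of Tnni2 was 42159 bp away. The peak of Tnni2 was called in both Maf samples, at position 65 of 74 and at position 407 of 5467. It lay between protein-coding genes and closest to the start of another gene, Ctsd (11471 bp).

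Tnnc1 encodes the calcium sensor of the troponin complex in slow fibers and in the heart. Its gene, at chr14:31208312-31211729, held no H3K27ac, yet its window was among the most marked of the genome. The mark amounted to 35.5 kb in replicate 1 and 34.2 kb in replicate 2, in 16 regions after merging, and 97.5% of genes had less. Tnnc2, the fast troponin C, had 30.2 and 31.5 kb, so this was the only pair in which the slow gene had the larger amount, in either replicate. The promoter of Tnnc1 was covered over 24.6% and 25.0%, by a region of 4178 bp that ended 508 bp before the start in replicate 1 and 501 bp in replicate 2 and spanned the start of Nisch. Tnnc1 was thus counted as marked through the region of its neighbour. Of the gene itself 0% was covered in either replicate, against 100% of Tnnc2.

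Both Maf peaks in the window of Tnnc1 lay in introns of Nisch, 26491 and 32228 bp before the start of Tnnc1, at positions 1588 and 2607. Each overlapped H3K27ac after merging the replicates and held TGCTGA once. The region at the farther peak, of 1048 bp, was called only in H3K27ac replicate 1. The peak nearest to Tnnc2, 24611 bp from its start at position 2015, lay in an intron of Dnttip1. For both troponin C genes the peaks thus lay inside other genes.

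Tpm3 encodes the slow alpha tropomyosin, which covers the myosin sites on actin, and its internal start gives shorter tropomyosins of the cytoskeleton. The starts at the 5′ end of the gene, the first at 90072649 on chromosome 3, had no region within 1 kb. The 3 internal starts, of which the last is at 90079715, lay in a region of 4240 bp after merging the replicates. Of all promoter bases of Tpm3, 44.9% were covered in replicate 1 and 52.1% in replicate 2. The gene was covered over 15.6% and 15.0%, against 78.8% and 72.0% of Tpm1, which gives the fast alpha tropomyosin. The nearest Maf peak lay 95224 bp from Tpm3 and had no H3K27ac, against 28295 bp for Tpm1, where the mark was present.

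Atp2a2 encodes the calcium pump SERCA2 of slow fibers and of the heart, with a further form in most cell types. Its promoter was the most fully marked of the 10 genes, covered over 95.5% in replicate 1 and 100% in replicate 2. The region there was 2958 bp long, and the rest of the gene was nearly bare, so that 4.95% and 5.52% of the gene were covered. Atp2a1, the calcium pump SERCA1 of fast fibers, was covered over 100% and 95.3%, by a region of 26285 bp. The marked stretch at the start was thus shorter at the slow pump.

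Atp2a2 was also the only slow gene with a Maf peak at its start. The peak, at chr5:122502077-122502357, had its centre 8 bp from the start, in exon sequence that is not translated, and stood at position 4347 of 5467 in replicate 2. It was not called in replicate 1. Atp2a1 had a peak over its start at position 13 and another 650 bp before it at position 149, both only in replicate 2. The parts of the peaks before each gene are shown since these are the pumps with a Maf peak at the start. They lie at chr5:122502226-122502357 for Atp2a2 and at chr7:126463109-126463369 for Atp2a1, both on the minus strand, with TGCTGAC in capitals, read on the other strand.
Atp2a2: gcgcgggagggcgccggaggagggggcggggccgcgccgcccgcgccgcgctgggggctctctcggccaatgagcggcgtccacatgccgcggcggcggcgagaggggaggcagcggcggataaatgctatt
Atp2a1: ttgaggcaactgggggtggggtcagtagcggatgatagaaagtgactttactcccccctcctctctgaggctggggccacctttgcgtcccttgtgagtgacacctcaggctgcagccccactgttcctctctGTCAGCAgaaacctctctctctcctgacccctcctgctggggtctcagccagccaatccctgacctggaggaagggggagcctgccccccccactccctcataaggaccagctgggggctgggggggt
No TGCTGA was found in the peak of Atp2a2, whose G and C made up 78.0% of the bases shown, against 62.4% for Atp2a1. The site of Atp2a1 begins at -128 from the start of the gene, 4 bp from the centre of the peak. The RefSeq promoter table was not used for Atp2a2.

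Myoz2 encodes calsarcin-1, a protein of the Z-disc that binds the phosphatase calcineurin. Its start was marked in both replicates, with 56.0% and 52.9% of the promoter covered by a region of 1761 bp after merging. Of the gene, 5.38% and 5.70% were covered, against 100% of Myoz1, the calsarcin of fast fibers, in both replicates. The window of Myoz2 held 2.15 and 2.17 kb of the mark, among the lowest of the slow genes, against 41.1 and 39.3 kb for Myoz1. The sequence before the RefSeq start of Myoz2, chr3:123034988-123035187 on the minus strand, is shown for a match to the Mef2 consensus at this marked start. Which factor binds it was not tested. Among the 13 RefSeq promoters searched, of 9 slow genes, only this one held such a match. Atp2a2 had no RefSeq promoter here and those of Myl2 lay before its GENCODE starts, so the GENCODE promoters of these genes were not searched. Capitals mark the Mef2 match, at -33, and CAGCTG, at -12, both from the RefSeq start. The GENCODE start, at 123035015, lies inside the Mef2 match, so CAGCTG lies past that start.
Myoz2: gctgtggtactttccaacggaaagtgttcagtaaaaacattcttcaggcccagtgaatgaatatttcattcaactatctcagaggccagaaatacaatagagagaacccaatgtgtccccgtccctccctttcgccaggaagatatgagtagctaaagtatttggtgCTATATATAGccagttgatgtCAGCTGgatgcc
The Mef2 site was present in 3.19% of all RefSeq promoters and CAGCTG in 16.3%. The nearest Maf peak lay 50194 bp from Myoz2, just past the limit of the window, at position 2245, whereas Myoz1 had 1 inside the gene, 4463 bp past its start, at position 254.

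Over the 10 slow genes, a Maf peak lay within 50 kb of a start at 4, namely Tnni1, Tnnc1, Myl2 and Atp2a2, against 9 of 9 fast counterparts and 28.8% of all genes. Within 10 kb it lay at 1 slow gene, against 6 fast counterparts and 10.2% of all genes. Inside the gene it lay at 1 slow gene, against 3 fast counterparts and 11.9% of all genes. The slow genes were thus near the share of all genes at each distance, and the fast counterparts were above it. Just inside the limit the farthest peak was that of Tnnc1 at 32228 bp, and just outside it was that of Myoz2 at 50194 bp. The distance to the nearest Maf peak ran from 0 to 373963 bp with a median of 62817 bp for the slow genes, against 0 to 42159 bp with a median of 3086 bp for the fast counterparts. The slow gene had the farther peak in 7 of 9 pairs, the nearer one in 1 and the same distance of 0 in 1, the pumps.

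**Figure D2:**
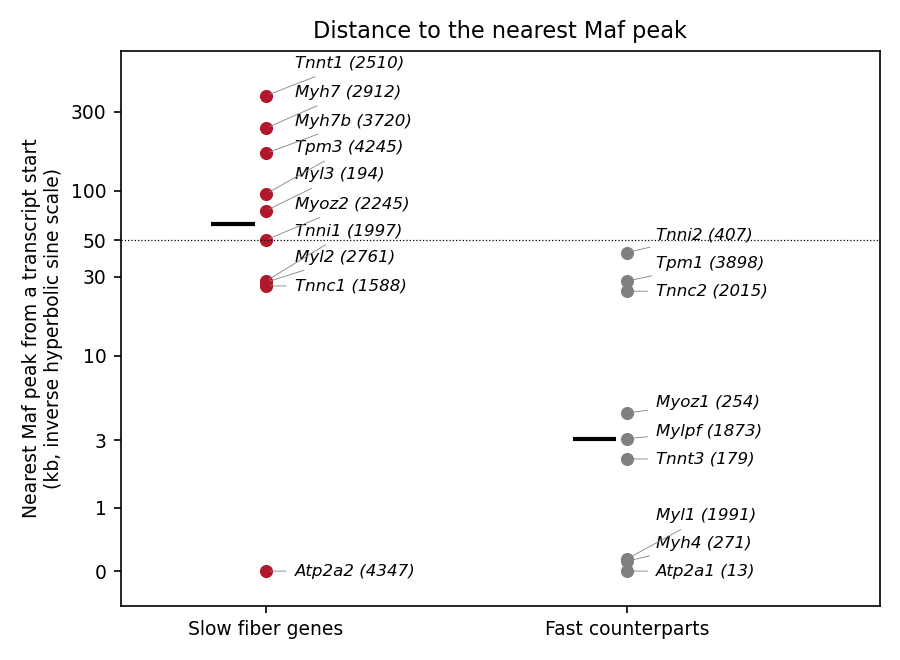
Distance in kb from a transcript start to the nearest Maf peak, on an inverse hyperbolic sine scale, for the 10 slow fiber genes (left) and their 9 fast counterparts (right). Each point is a gene, with the position of the peak in the replicate 2 list in brackets, the thick bar is the median (62817 bp for slow genes and 3086 bp for fast counterparts) and the dotted line is the limit of 50 kb.

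In all, 6 Maf peaks lay around the slow genes, all of them only in replicate 2, and 5 of them overlapped H3K27ac after merging its replicates. For the farther peak of Tnnc1, the region was called only in H3K27ac replicate 1. Around the fast counterparts lay 20 peaks, all overlapping H3K27ac. By position, the peaks around the slow genes ranged from 1588 to 4347 of 5467 and those around the fast counterparts from 13 to 5355, so the ranges overlapped. The peaks nearest to Mylpf, Myl1, Tnnc2 and Tpm1, at positions 1873, 1991, 2015 and 3898, lay inside the range of the slow genes, and those nearest to Atp2a1, Tnnt3, Myoz1, Myh4 and Tnni2, at 13, 179, 254, 271 and 407, lay before it. The lists do not say that they are ordered by strength, so positions are a description of the list only. The shorter half-site TGCTGA was present in 3 of the 6 peaks around slow genes, against 50.8% of all Maf peaks. CAGCTG was present in 2 of 6, against 24.2%.

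Around the slow genes lay 61 H3K27ac regions, of which 38 were called in both replicates, 13 only in replicate 1 and 10 only in replicate 2. Over all regions, 67.0% were called in both. Their median length was 1723 bp, against 1446 bp for all merged regions. Only 15 of the 61 touched a slow gene, 5 had the start of a slow gene within 1 kb, 12 had the start of another gene, and 45 had no start. Most of these regions thus did not touch a slow gene. The genes also filled only part of their windows, from 3418 bp of 100 kb at Tnnc1 to 48713 bp of 100.3 kb at Atp2a2. The part of this in the count was not tested. In the central 500 bases of the 15 touching regions, TGCTGA occurred in 7, against 34.7% of all regions, and TGCTGAC in 1, in Tpm3, against 9.04%. CATTCC occurred in 3, in Tnnt1 and Tpm3, against 24.6%, TATAAA in 5 against 22.9%, and the Mef2 site in 1, in Tnni1, against 8.63%.

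**Figure D3:**
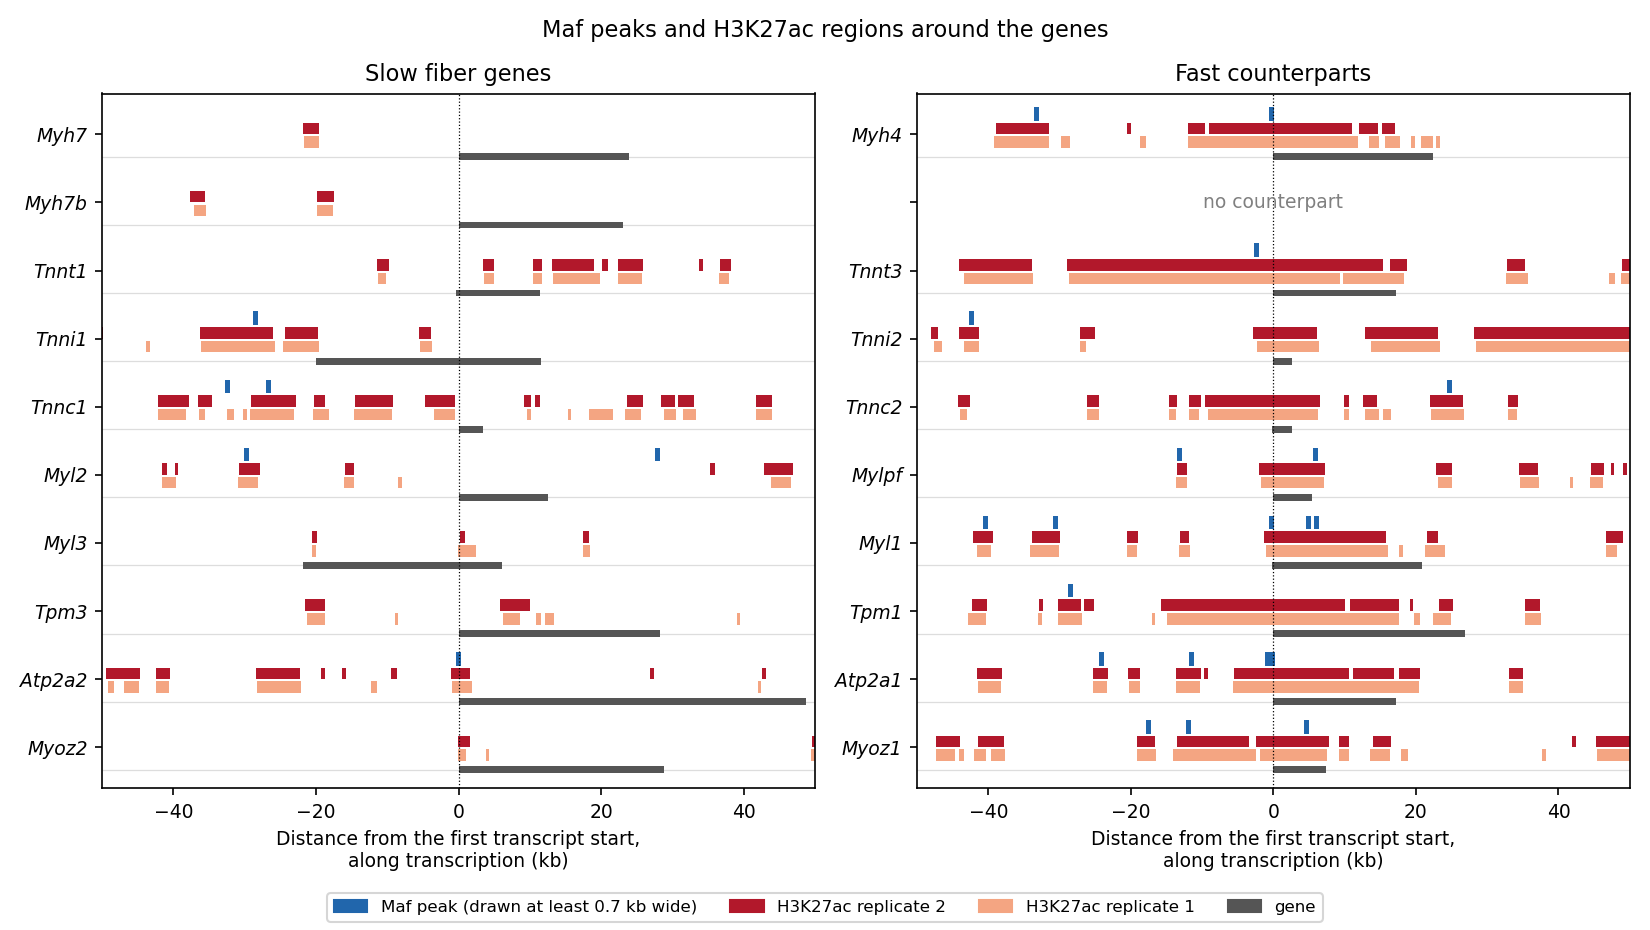
Maf peaks (blue, replicates merged and drawn at least 0.7 kb wide), H3K27ac regions of replicate 2 (red) and replicate 1 (light red) and genes (grey) within 50 kb of the first protein-coding start, for the 10 slow fiber genes (left) and their 9 fast counterparts (right), in kb along transcription. Myh7, Myh7b, Tnnc1 and Myl2 hold no region, and the longest region touching a slow gene is 5081 bp, against 47650 bp at Tnnt3.

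The median amount of H3K27ac in the window was 8.85 kb in replicate 1 and 8.76 kb in replicate 2 for the slow genes, against 39.9 and 38.0 kb for the fast counterparts and 5.21 and 5.22 kb for all genes. Among the slow genes, it ranged after merging from 2.18 kb at Myh7 through 2.75 kb at Myoz2, 4.24 kb at Myl3, 4.68 kb at Myh7b, 10.2 kb at Tpm3, 12.3 kb at Myl2, 17.6 kb at Tnnt1, 18.0 kb at Tnni1 and 20.6 kb at Atp2a2 to 41.3 kb at Tnnc1. The order of neighbours within about the difference of the replicates, such as Tnnt1 and Tnni1, is not settled. Windows that hold more genes can hold more marked promoters, and their part in these amounts was not tested. Other genes started in the windows of 8 of the 10 slow genes, and none in those of Atp2a2 and Myoz2. Among the fast counterparts, none started in the windows of Myl1 and Tpm1, and from 2 (such as Myh4) to 8 (Tnnc2) in the others. The windows of Tnni2 and Tnnt3 overlapped, so part of the mark was counted for both.

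Further genes linked to slow fibers are given as counts, with no test of their difference from the 10 sarcomere genes. Of 17 such genes, a list that also holds the heart and developmental genes Myh6 and Tnnt2, 14 had H3K27ac at the promoter, against 58.3% of all genes. A region of 10 kb or more touched 5 of the 17, against 3.72%, and 6 had a Maf peak within 50 kb, near the 28.8% of all genes. Their median covered share was 26.1% of the gene, against 3.81% for all genes. Those with the earliest nearest peaks in the list within 50 kb were Myh2, the heavy chain of fast oxidative fibers and also a fast fiber marker here, at position 166 and 31075 bp away, and the small heat shock genes Hspb6 at 505, Hspb7 at 954 and Hspb8 at 2757. Of 12 regulators of slow fiber genes, 12 had a marked promoter, against 58.3% of all genes, and 6 were touched by a region of 10 kb or more, against 3.72%. A Maf peak lay inside 7 of them, against 11.9% of all genes, and within 50 kb of a start at 5, against 28.8%. Longer genes can hold more peaks, and the part of gene length in the count inside was not tested. Their median covered share was 33.0%. Tead1, a factor that binds MCAT elements, had a peak 658 bp from a start at position 712, and Tbx15, known for its role in glycolytic fibers, 40135 bp from one at position 754. Ppard, a receptor that promotes oxidative fibers, had a peak over a start at position 2938, and Esrrg, an oxidative nuclear receptor, 36978 bp from one at position 3324.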

How the data were processed

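The authors purified nuclei, made ChIP-seq libraries and called peaks in each sample. The submitters' processing notes name bcl2fastq 2.17, FastQC, Bowtie2 2.3.2, Picard 2.10.3 and HOMER with GRCm38, and the paper also names Trim Galore and Star. The paper states a false discovery rate for the Maf peaks. Whether it holds for each list, the other settings of the peak caller and the use of the inputs are not given in the sources used here. The deposited lists hold positions and a score that is 1 on every line. The lists carry no read depth, so no counting interval could be made, and list position was used as a description. From the lists on, overlapping or touching intervals of both replicates were merged. None of the intervals passed a chromosome end of GRCm38 (0). A further 10 lay on other sequences and were left out of the motif searches, but stayed in the share of all merged regions called in both replicates. Protein-coding transcripts of the GENCODE basic annotation on 19 autosomes, X and Y gave 41433 starts of 21827 gene names. An overlap needed 1 base. Promoters were 1 kb to either side of a start, windows 50 kb, and broad regions 10 kb or more.

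Named genes were the members, their fast counterparts, the gene holding or nearest to each Maf peak around a member, and from 2 further lists the up to 4 with the earliest peak in the replicate 2 list, taken here as the nearest peak within 50 kb. The members and lists were chosen with earlier results of these data known, so no p-value was computed. Motifs were searched on both strands in Maf peaks, RefSeq promoters of 9 of the 10 members and region centres. The Mef2 site was searched as its degenerate consensus. Interval functions were checked on simulated data. Alternatives covered distance, promoter width, starts, replicates, list order and overlap. Python 3.11.15, numpy 2.4.6, pysam 0.24.0, samtools 1.23.1 and matplotlib 3.10.9 were used. The input samples were not used here.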

Additional observations from a re-analysis of the deposited data

How the results depend on the processing

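No paired analysis was possible because no result comes from a test that a replicate block could enter, and slow and fast genes were compared pair by pair as a description only. Of 41 alternatives over 6 results, 16 moved a result, and their values follow. A count was taken as moved only when it changed by more than a set ratio, or to or from 0. Smaller changes were not counted, such as from 5 marked promoters to 4 at the start itself or to 6 with promoters of 2 kb. The median covered share was taken as moved when it changed by at least the standard deviation of the 2 replicate medians. The 4 slow genes with a Maf peak within 50 kb became 1 at 10 kb, 7 at 100 kb and 2 with peaks up to the midpoint of each list, and ranged from 0 (without replicate 2) to 4 (without replicate 1) when a Maf replicate was left out. The 1 slow gene with a peak inside became 0 with peaks up to the midpoint, and ranged from 0 without replicate 2 to 1. The 6 Maf peaks around the slow genes became 1 at 10 kb, 14 at 100 kb and 3 up to the midpoint, and ranged from 0 without replicate 2 to 6. The 5 marked promoters became 3 up to the midpoint. With the 5′ end of each gene as its only start there were 4, with Tnni1 gained and Myl3 and Tpm3 lost. The median covered share of 6.98% was 3.41% over bases called in both replicates, 0% up to the midpoint, and 5.17% to 5.53% when a replicate was left out. With broad regions set at 5 kb, 1 slow gene was touched in place of 0. Starts of the comprehensive annotation, chosen after seeing the data, moved none of the 3 results tried. The Maf results rest on replicate 2, and the unknown depth limits what the absence of a peak or region can show.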
